A study of Mus musculus with 12 samples.

Results

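The colony-stimulating factors and the subunits of their receptors were followed in bulk RNA-seq counts from mouse bone marrow-derived macrophages (BMDM). Their rows were taken by gene symbol, Csf1, Csf2 and Csf3 among the ligands and Csf2ra, Csf2rb, Csf2rb2 and Csf3r among the receptors. Each symbol had 1 row, so the set holds 7 of the 54532 genes listed, and all 7 were among the 14286 genes with enough counts to test. The study crossed a genotype with a treatment in 4 groups of 3 libraries. Hdac3f/f cells carry an Hdac3 gene, which encodes a histone deacetylase, flanked by loxP sites and have no recombinase. Lyz2-Cre-Hdac3f/f cells carry the same floxed gene together with Cre made from the Lyz2 locus, which is active in myeloid cells, so the floxed gene is shared by all 4 groups. Cells of each genotype stayed 4 h in medium alone or in medium with 500 ng/ml LPS (lipopolysaccharide, a part of the outer membrane of bacteria that macrophages sense through the receptor Tlr4). Marrow was taken at 8 weeks of age and grown with 10 ng/ml M-CSF, 10% serum and 1% penicillin and streptomycin, so every culture received the protein product of Csf1 from outside. The labels do not say whether replicates are separate animals, so p-values measure only the spread between these libraries, which may be technical. The comparisons ask how LPS moved these genes in each genotype, how the genotypes differed without and with LPS, and whether the LPS response itself differed between them (the interaction).

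Csf1 encodes M-CSF, which signals through the kinase receptor Csf1r and keeps macrophages alive. Csf2 encodes GM-CSF, which macrophages, T cells, stromal and endothelial cells release in inflammation. Its receptor pairs a ligand-binding alpha chain (Csf2ra) with a signalling beta chain (Csf2rb) that is shared with the receptors of interleukins 3 and 5, while the mouse paralog Csf2rb2 serves interleukin 3 alone. Csf3 encodes G-CSF, the main growth factor of neutrophils, and Csf3r its receptor, which signals as a homodimer. The receptors of GM-CSF and G-CSF act through Janus kinases and STAT proteins, whereas the messenger RNAs of many cytokines carry AU-rich elements in the 3′ untranslated region (UTR) that are bound by decay factors such as Zfp36.

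The ligands and receptors differed in that last feature. The pentamer ATTTA, read on the sense strand with overlapping matches counted, occurred in the 3′ UTR of all 3 ligands and in none of the 4 receptors. The 30-base stretch richest in it is shown for each ligand, 5′ to 3′, with the pentamers in capitals, since these are the letters that set the ligands apart. They were read from GENCODE transcripts of GRCm38, the assembly named mm10 in the study.
Csf2: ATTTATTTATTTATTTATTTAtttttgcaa
Csf3: ATTTAtctctATTTAatATTTAtgcatatt
Csf1: ATTTAaatatctATTTAaaaaataggaagc
The Csf2 stretch lies at chr11:54247320-54247349 on the minus strand and holds 5 of the 9 pentamers of a 317-base 3′ UTR. As many were found in 0.117% of the 1711 3′ UTRs of like length (within 20%). The Csf3 stretch lies at chr11:98702992-98703021 on the plus strand and holds 3 of 6 pentamers in 669 bases, a number reached by 1.20% of 3′ UTRs of like length. For Csf1 the stretch at chr3:107741096-107741125, on the minus strand, holds 2 of 4 pentamers in 2111 bases, which 27.7% of 3′ UTRs of like length matched. Over all 20721 3′ UTRs read, 65.2% held at least 1 pentamer, so only the counts in Csf2 and Csf3 were rare. These matches describe the sequence and are no measure of decay.

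The 7 genes lie on 5 chromosomes in mm10, by the deposited coordinates. Csf1 (ENSMUSG00000014599) spans chr3:107741048-107760469, Csf2 (ENSMUSG00000018916) chr11:54247271-54249667 and Csf3 (ENSMUSG00000038067) chr11:98701263-98703629. Csf2ra (ENSMUSG00000059326) spans chr19:61224402-61228418 and Csf3r (ENSMUSG00000028859) chr4:126024550-126044440. The 2 beta chain genes are neighbours on opposite strands, Csf2rb2 (ENSMUSG00000071714) at chr15:78282507-78305721 and Csf2rb (ENSMUSG00000071713) at chr15:78325752-78353847, with 20030 bases between them. Csf2 overlaps the gene model Gm12223, which held 1 count in all 12 libraries together.

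Csf2rb and Csf2rb2 are near copies, which limits how surely a read can be given to either. Their coding sequences were identical at 95.2% of 2631 aligned bases, with a longest shared run of 242 bases. The first 120 coding bases are shown for both, in GENCODE transcripts of GRCm38, with the 4 differing bases in capitals.
Csf2rb: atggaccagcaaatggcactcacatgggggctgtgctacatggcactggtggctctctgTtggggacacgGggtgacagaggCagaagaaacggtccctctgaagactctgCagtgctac
Csf2rb2: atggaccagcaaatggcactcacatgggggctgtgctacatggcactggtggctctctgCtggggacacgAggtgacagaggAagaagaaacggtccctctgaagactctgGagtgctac
Of all 50-base stretches of the Csf2rb transcript, 18.4% were found unchanged in the Csf2rb2 transcript. That share was 6.96% for 100 bases and 3.47% for 150 bases. The counting tool and its handling of reads with several matches are not given in the sources used here, so a transfer of reads between the 2 genes was not tested, and both are reported as uncertain to that extent.

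Library totals ran from 16553432 to 18706990 counts, and 3 counts, taken here as the detection floor, equalled 0.13 to 0.234 CPM in a single library. CPM, the usual unit of counts scaled to library size, were corrected by TMM factors, which ranged from 0.716 to 1.26 and were lower in the LPS groups. Hdac3 itself stood at 38.4 ± 1.86, 39.4 ± 1.08, 34.9 ± 1.75 and 37.0 ± 2.36 CPM (SD, n = 3) in untreated Hdac3f/f, LPS-treated Hdac3f/f, untreated Lyz2-Cre-Hdac3f/f and LPS-treated Lyz2-Cre-Hdac3f/f libraries. A count over the whole gene does not measure recombination of the floxed part, so these values check neither genotype. The macrophage markers Adgre1, Cd68, Itgam, Mertk, Fcgr1, Lyz2, Mrc1 and Sirpa were all detected in each group. Lyz2 stood at 31.0 CPM in untreated Lyz2-Cre-Hdac3f/f replicate 1, against 5632 CPM in the highest library of its group and 9309.6 CPM or more in Hdac3f/f cells, so results that rest on this library are given without it where they change. Untreated Hdac3f/f replicate 1 stood apart by its stromal markers, as described with Csf1.

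LPS raised the whole set in Hdac3f/f cells and nearly the whole set in Lyz2-Cre-Hdac3f/f cells. By edgeR's quasi-likelihood test at a Benjamini-Hochberg adjusted p under 0.05 over all genes tested, 7 of 7 members were higher with LPS in Hdac3f/f cells, where 28.0% of all genes were called higher, 32.1% lower and 60.1% in either direction. In Lyz2-Cre-Hdac3f/f cells 6 of 7 were higher, all but Csf2rb2, against 25.2% of all genes called higher, 27.7% lower and 52.9% in either direction. The median log2 fold change of the members was 1.99 and 1.05, beside medians of -0.08 and -0.08 over all genes tested. Csf2 and Csf3 held so few untreated counts that they entered the test only through their LPS-treated libraries. Only a rise could be called for these 2 genes, so they add no support to the counts and medians for LPS. Without LPS, 3 members differed between the genotypes, Csf2rb and Csf2rb2 higher and Csf2ra lower in Lyz2-Cre-Hdac3f/f cells, against 5.13% of all genes called higher, 6.66% lower and 11.8% in either direction. With LPS, 4 members were lower in Lyz2-Cre-Hdac3f/f cells (Csf1, Csf3, Csf2ra and Csf3r), against 16.9% of all genes called lower, 15.7% higher and 32.6% in either direction, and the median over the members was -0.54 against 0.02 over all genes. The interaction was called for 1 member, Csf3r, where LPS raised it less in Lyz2-Cre-Hdac3f/f cells, against 5.54% of all genes called lower, 2.58% higher and 8.12% in either direction.

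**Figure D1:**
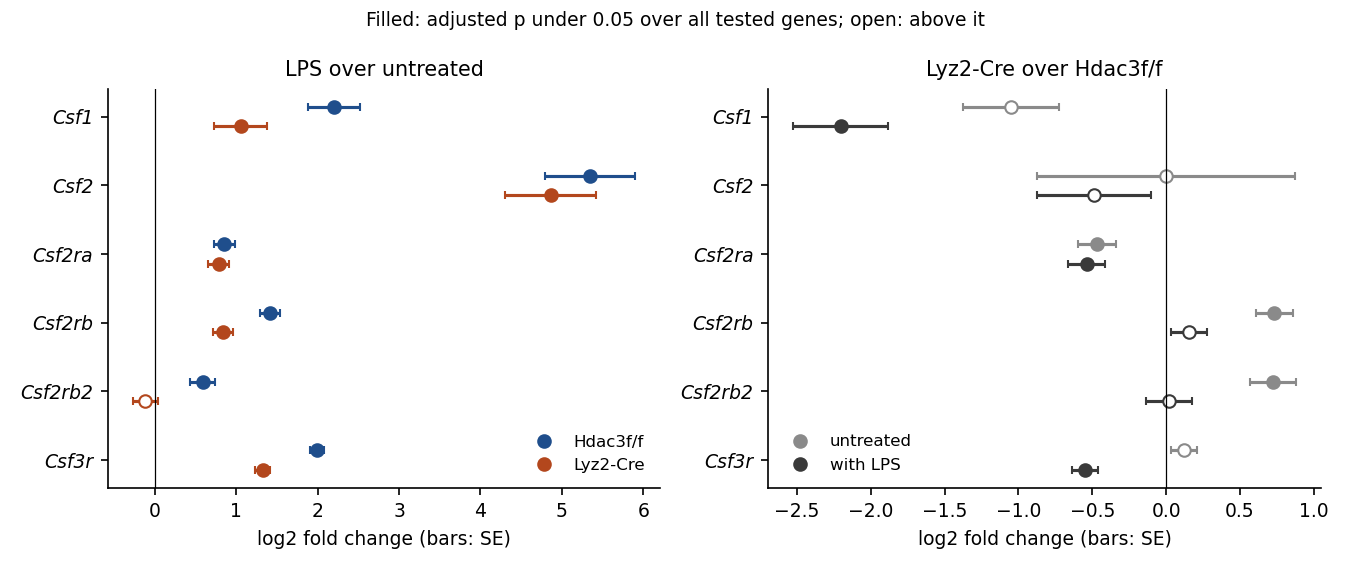
Log2 fold changes of 6 of the 7 genes, with LPS over untreated on the left and Lyz2-Cre-Hdac3f/f over Hdac3f/f on the right, bars of 1 standard error, and points filled where the adjusted p was under 0.05. Csf3, whose untreated groups were at or under the floor, is left out. The LPS responses lie above 0 except Csf2rb2 in Lyz2-Cre-Hdac3f/f cells at -0.12, and Csf1 has the lowest genotype difference with LPS at -2.20.

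How the library sizes are scaled bears on these counts. With library totals alone in place of TMM, the median over all genes moved from -0.08 to -0.72 for LPS in Hdac3f/f cells, from -0.08 to -0.46 for LPS in Lyz2-Cre-Hdac3f/f cells, and from 0.02 to 0.29 for the genotype difference with LPS. The share of called genes that were higher went from 46.5% to 20.2%, from 47.7% to 24.7% and from 48.2% to 77.1% in these 3 comparisons, and from 31.8% to 71.7% in the interaction. Values below are on the TMM scale, and the members whose direction or call depends on it are named beside their result.

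Among the ligands, Csf1 separated the genotypes most after LPS. It stood at 26.2, 11.8 and 11.04 CPM in the 3 untreated Hdac3f/f libraries and at 65.7, 75.5 and 85.8 CPM with LPS. In Lyz2-Cre-Hdac3f/f cells it stood at 5.0, 9.07 and 9.64 CPM untreated and at 16.9, 12.8 and 19.6 CPM with LPS. Each LPS group lay wholly above its untreated group, and the LPS-treated Lyz2-Cre-Hdac3f/f libraries overlapped only the untreated Hdac3f/f range, far under the LPS-treated Hdac3f/f range. Csf1 rose with LPS by 2.21 ± 0.32 (log2 fold change ± SE, adjusted p = 5.26e-05, edgeR) in Hdac3f/f cells and by 1.05 ± 0.33 (adjusted p = 0.0155, edgeR) in Lyz2-Cre-Hdac3f/f cells. With LPS it was lower in Lyz2-Cre-Hdac3f/f cells by a log2 difference of -2.20 ± 0.32 (adjusted p = 0.000515, edgeR), and this call held in all 21 other settings tried, from -2.35 to -1.93.

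The other Csf1 comparisons were less firm. Without LPS the genotypes did not overlap, but the log2 difference of -1.05 ± 0.32 missed the threshold (adjusted p = 0.053, edgeR). It became -0.54 when untreated Hdac3f/f replicate 1 was left out, and -0.30 (adjusted p = 0.32) when the untreated replicate 1 of both genotypes was left out. It passed with DESeq2 (adjusted p = 0.00925), RLE size factors (adjusted p = 0.0487) or no filter on low counts (adjusted p = 1.94e-05), and when untreated Hdac3f/f replicate 3 (adjusted p = 0.0433) or LPS-treated Hdac3f/f replicate 1 (adjusted p = 0.0486) was left out. The rise with LPS in Lyz2-Cre-Hdac3f/f cells lost its call without untreated replicate 1 (adjusted p = 0.0576), without LPS-treated replicate 3 (adjusted p = 0.0541) or with library totals alone (0.66, adjusted p = 0.13). The interaction of -1.15 ± 0.45 was not called (adjusted p = 0.14, edgeR), but it was in 3 of 20 other settings. These were without untreated Hdac3f/f replicate 1 (-1.67, adjusted p = 0.00942), with no filter on low counts (adjusted p = 0.00304) and without the untreated replicate 1 of both genotypes (-1.89, adjusted p = 0.00125). Leaving out single libraries gave -1.67 to -0.94, with adjusted p up to 0.286.

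Stromal cells are a known source of Csf1, and stromal markers were lower where Csf1 was lower between the genotypes. Of the 7 stromal markers listed (Col1a1, Col1a2, Col3a1, Dcn, Lum, Pdgfra and Pdgfrb), 6 could be tested and none was at 0 in any group. Without LPS 5 of 6 were lower in Lyz2-Cre-Hdac3f/f cells, and with LPS 6 of 6, among them the collagen gene Col1a1 by a log2 difference of -5.72. Of all genes 6.66% and 16.9% were lower. With LPS, where Csf1 rose in both genotypes, 2 of 6 rose in Hdac3f/f cells (median log2 fold change 1.08). In Lyz2-Cre-Hdac3f/f cells 1 of 6 rose (median -0.86). Of all genes 28.0% and 25.2% rose, so these 2 counts were not far from those of all genes. Their summed level was 1348, 280.4 and 443 CPM in the untreated Hdac3f/f libraries and 808, 1142 and 1672 CPM in those with LPS. In Lyz2-Cre-Hdac3f/f cells it was 15.3, 128 and 39.4 CPM untreated and 33.5, 42.7 and 42.7 CPM with LPS. The untreated Hdac3f/f library with the highest Csf1, replicate 1, thus had the highest untreated stromal sum, while its 26.2 CPM of Csf1 stayed under the 65.7 CPM of an LPS-treated library with a lower stromal sum of 808 CPM. The part of the stromal RNA in the Csf1 difference was not tested, and in bulk RNA fewer cells of a type and less RNA per cell cannot be told apart.

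**Figure D2:**
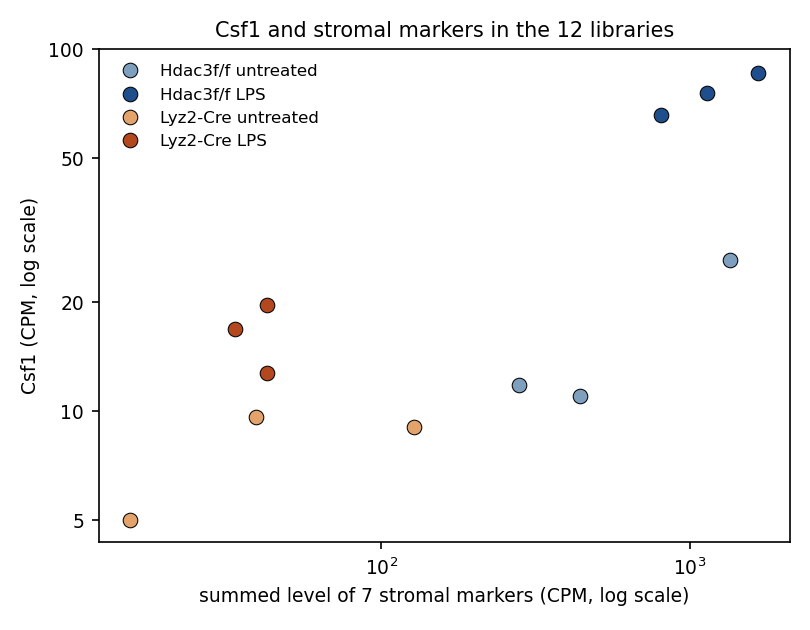
Csf1 level against the summed level of 7 stromal markers, both in CPM on log axes, 1 point per library and 1 colour per group. The LPS-treated Hdac3f/f libraries lie at the upper right (Csf1 65.7 to 85.8 CPM), and every Lyz2-Cre-Hdac3f/f library lies left of the lowest Hdac3f/f stromal sum of 280.4 CPM.

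Csf2 was rare in all groups and rose with LPS in both genotypes. Its counts summed to 7 in each untreated group and to 197 and 169 in the LPS-treated Hdac3f/f and Lyz2-Cre-Hdac3f/f groups. The untreated libraries held 0.0867, 0.146 and 0.102 CPM in Hdac3f/f cells and 0.194, 0.0889 and 0.0497 CPM in Lyz2-Cre-Hdac3f/f cells. With LPS the values were 3.26, 3.27 and 7.83 CPM in Hdac3f/f and 2.71, 2.54 and 5.01 CPM in Lyz2-Cre-Hdac3f/f cells. Every LPS-treated library lay above every untreated one, and the genotypes overlapped under either condition. The rise was 5.35 ± 0.55 (adjusted p = 2.58e-06, edgeR) and 4.86 ± 0.56 (adjusted p = 9.32e-06, edgeR) on the log2 scale. Its size is imprecise, as single untreated libraries held 2 to 3 counts in Hdac3f/f and 1 to 4 in Lyz2-Cre-Hdac3f/f cells, around the floor of 3. The genotype difference with LPS was -0.49 ± 0.38 (adjusted p = 0.35, edgeR) and turned to 0.07 without LPS-treated Hdac3f/f replicate 3, the library with 7.83 CPM. The difference without LPS rests on 7 counts a side, all libraries near the floor, and was not detectable at this depth.

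Csf3 had the widest range of the set, from no counts to over 100 CPM. No count was found in the 3 untreated Hdac3f/f libraries, and a single count in the untreated Lyz2-Cre-Hdac3f/f libraries, in replicate 3. With LPS it reached 120, 195 and 138 CPM in Hdac3f/f and 98.9, 86.3 and 107 CPM in Lyz2-Cre-Hdac3f/f cells, 6148 and 4843 counts in all, and the 2 groups did not overlap. Against a floor of 3 counts over the untreated group, Csf3 was at least 3157-fold higher with LPS in Hdac3f/f cells (adjusted p = 6.49e-10, edgeR). In Lyz2-Cre-Hdac3f/f cells the ratio to the single count was 6140, with an exact 95% interval from 1102 to 242586 that covers counting error only (adjusted p = 1.71e-09, edgeR). The former is a bound and the latter a ratio to 1 count, so they do not rank the genotypes. With LPS it was lower in Lyz2-Cre-Hdac3f/f cells by a log2 difference of -0.64 ± 0.18 (adjusted p = 0.0226, edgeR). That call was lost with library totals alone (-0.35, adjusted p = 0.113), without LPS-treated Hdac3f/f replicate 2 (-0.41, adjusted p = 0.0828), and without LPS-treated Lyz2-Cre-Hdac3f/f replicate 1 (adjusted p = 0.0667) or replicate 2 (adjusted p = 0.0903). No fold is given without LPS, where both genotypes were under the floor.

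**Figure D3:**
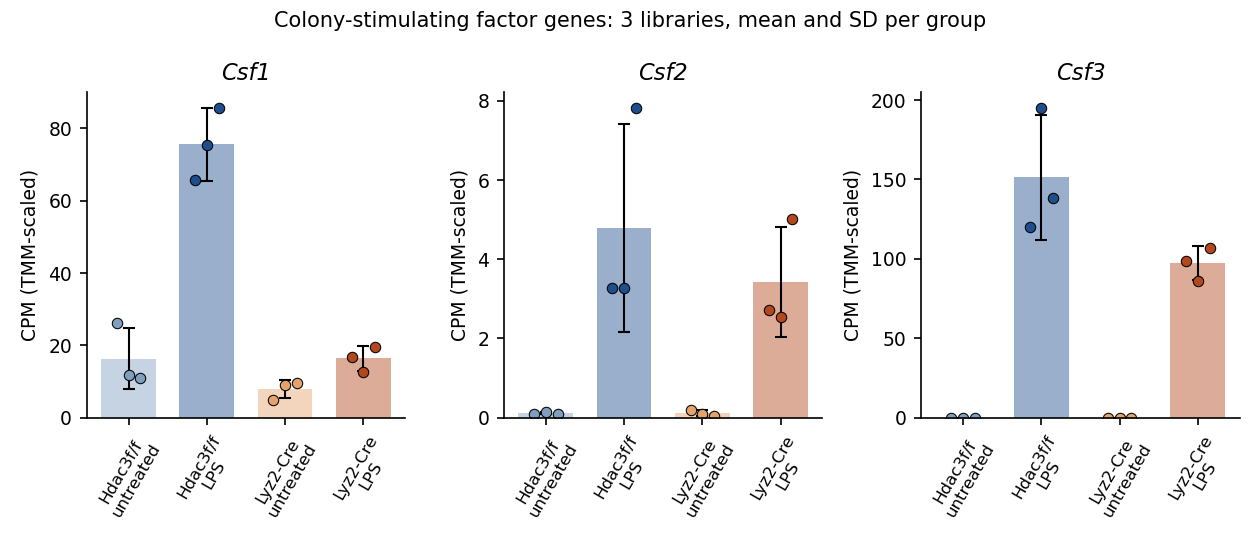
CPM of Csf1, Csf2 and Csf3 by group, on linear axes that differ between genes, with points for the 12 libraries, bars for the group mean and whiskers for the SD (n = 3). The LPS-treated libraries lie above the untreated ones of their genotype for all 3 ligands, and Csf1 in LPS-treated Lyz2-Cre-Hdac3f/f cells (12.8 to 19.6 CPM) lies under the LPS-treated Hdac3f/f range.

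Among the receptors, Csf2ra, the alpha chain for GM-CSF, was lower in Lyz2-Cre-Hdac3f/f cells with and without LPS. It stood at 612, 769 and 722 CPM in untreated and 1101, 1525 and 1181 CPM in LPS-treated Hdac3f/f libraries. The Lyz2-Cre-Hdac3f/f libraries held 515, 520 and 488 CPM untreated and 911, 837 and 872 CPM with LPS. No pair of compared groups overlapped. Csf2ra rose with LPS by 0.86 ± 0.13 (adjusted p = 7.71e-05, edgeR) in Hdac3f/f cells and by 0.78 ± 0.13 (adjusted p = 0.000216, edgeR) in Lyz2-Cre-Hdac3f/f cells. The former call was lost with library totals alone (0.21, adjusted p = 0.0686). The genotype difference was -0.47 ± 0.13 without LPS (adjusted p = 0.035, edgeR) and -0.54 ± 0.13 with LPS (adjusted p = 0.00806, edgeR). The first of these lost its call when any of 6 libraries was left out (untreated Hdac3f/f replicates 2 and 3, all 3 untreated Lyz2-Cre-Hdac3f/f replicates, or LPS-treated Lyz2-Cre-Hdac3f/f replicate 2), with adjusted p from 0.0509 to 0.148 and a difference from -0.48 to -0.40. The second lost it with library totals alone (-0.26, adjusted p = 0.0521).

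Csf2rb, the shared beta chain, ran the other way between genotypes before LPS. It stood at 279, 257 and 258 CPM in untreated Hdac3f/f and 527, 415 and 378 CPM in untreated Lyz2-Cre-Hdac3f/f libraries. With LPS the values were 659, 675 and 784 CPM in Hdac3f/f and 803, 750 and 802 CPM in Lyz2-Cre-Hdac3f/f cells. The untreated groups were apart and the LPS-treated ones overlapped. Csf2rb was higher in untreated Lyz2-Cre-Hdac3f/f cells by 0.73 ± 0.12 (adjusted p = 0.00358, edgeR), a call kept in all 21 other settings, from 0.58 to 0.83. It rose with LPS by 1.41 ± 0.13 (adjusted p = 5.94e-07, edgeR) in Hdac3f/f and by 0.83 ± 0.12 (adjusted p = 8.87e-05, edgeR) in Lyz2-Cre-Hdac3f/f cells. With LPS the genotype difference was 0.15 ± 0.12 (adjusted p = 0.359, edgeR), and with library totals alone it was called at 0.42 (adjusted p = 0.0151). The interaction of -0.58 ± 0.17 did not pass (adjusted p = 0.0607, edgeR). It passed in 3 of 20 other settings: with DESeq2 (adjusted p = 0.0115), without LPS-treated Hdac3f/f replicate 1 (adjusted p = 0.0397) and without untreated Lyz2-Cre-Hdac3f/f replicate 3 (adjusted p = 0.0479). Without untreated Lyz2-Cre-Hdac3f/f replicate 1, the library with 527 CPM, the LPS responses were 1.42 in Hdac3f/f and 0.99 in Lyz2-Cre-Hdac3f/f cells. The interaction then weakened to -0.43.

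Csf2rb2, the beta chain for interleukin 3, matched its neighbour before LPS but not in the response. The untreated libraries held 190, 182 and 193 CPM in Hdac3f/f and 390, 281 and 263 CPM in Lyz2-Cre-Hdac3f/f cells, and the LPS-treated ones 244, 266 and 341 CPM and 273, 276 and 313 CPM. Only the untreated Hdac3f/f libraries stood apart, under all others, and the other 3 groups overlapped. Csf2rb2 was higher in untreated Lyz2-Cre-Hdac3f/f cells by 0.72 ± 0.15 (adjusted p = 0.0115, edgeR), in each of the 20 other settings too, from 0.52 to 0.83. It rose with LPS in Hdac3f/f cells by 0.59 ± 0.15 (adjusted p = 0.00508, edgeR), a direction that turned with library totals alone (-0.05). In the other genotype the change with LPS was -0.12 ± 0.15 (adjusted p = 0.551, edgeR), it was called as a fall of -0.50 with library totals alone (adjusted p = 0.00818), and it was 0.08 without untreated replicate 1, the library with 390 CPM. The genotype difference with LPS was 0.02 ± 0.15 (adjusted p = 0.938, edgeR). The interaction was -0.70 ± 0.22 (adjusted p = 0.0674, edgeR). It passed in 3 of 19 other settings: with DESeq2 (adjusted p = 0.0213), with no filter on low counts (adjusted p = 0.0193) and without LPS-treated Hdac3f/f replicate 1 (adjusted p = 0.0313). Without untreated Lyz2-Cre-Hdac3f/f replicate 1 the interaction weakened to -0.51.

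Markers of mast cells and basophils, which carry the interleukin 3 receptor, were higher in untreated Lyz2-Cre-Hdac3f/f cells, as the beta chains were. Of 7 markers (Fcer1a, Ms4a2, Mcpt8, Hdc, Cpa3, Gata2 and Prss34), all were tested and none was at 0 in any group. In untreated Lyz2-Cre-Hdac3f/f cells 6 were higher, against 5.13% of all genes. Among these the IgE receptor chains Fcer1a and Ms4a2 differed by 1.29 and 0.97 on the log2 scale. In the same comparison 4 of 9 T and NK cell markers were higher and 1 lower, and 2 of 5 endothelial markers were higher. With LPS, where neither beta chain was called between the genotypes, 4 of the 7 mast cell and basophil markers were higher. Hdc was lower, and the median was 0.96. Of all genes 15.7% were higher and 16.9% lower. LPS raised 3 of 7 in Hdac3f/f cells, Hdc by 4.38, and 1 of 7, Hdc, in Lyz2-Cre-Hdac3f/f cells. Of all genes 28.0% and 25.2% rose. The summed level of the 7 was 90.5 to 121 CPM in untreated Hdac3f/f, 142 to 225 CPM in untreated Lyz2-Cre-Hdac3f/f, 192 to 272 CPM in LPS-treated Hdac3f/f and 187 to 328 CPM in LPS-treated Lyz2-Cre-Hdac3f/f libraries. Hdc alone had means of 3.77 and 78.5 CPM in untreated and LPS-treated Hdac3f/f and 7.67 and 32.0 CPM in Lyz2-Cre-Hdac3f/f cells. The sums with LPS thus include the rise of this 1 gene. The part of these markers in the beta chain difference was not tested.

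**Figure D4:**
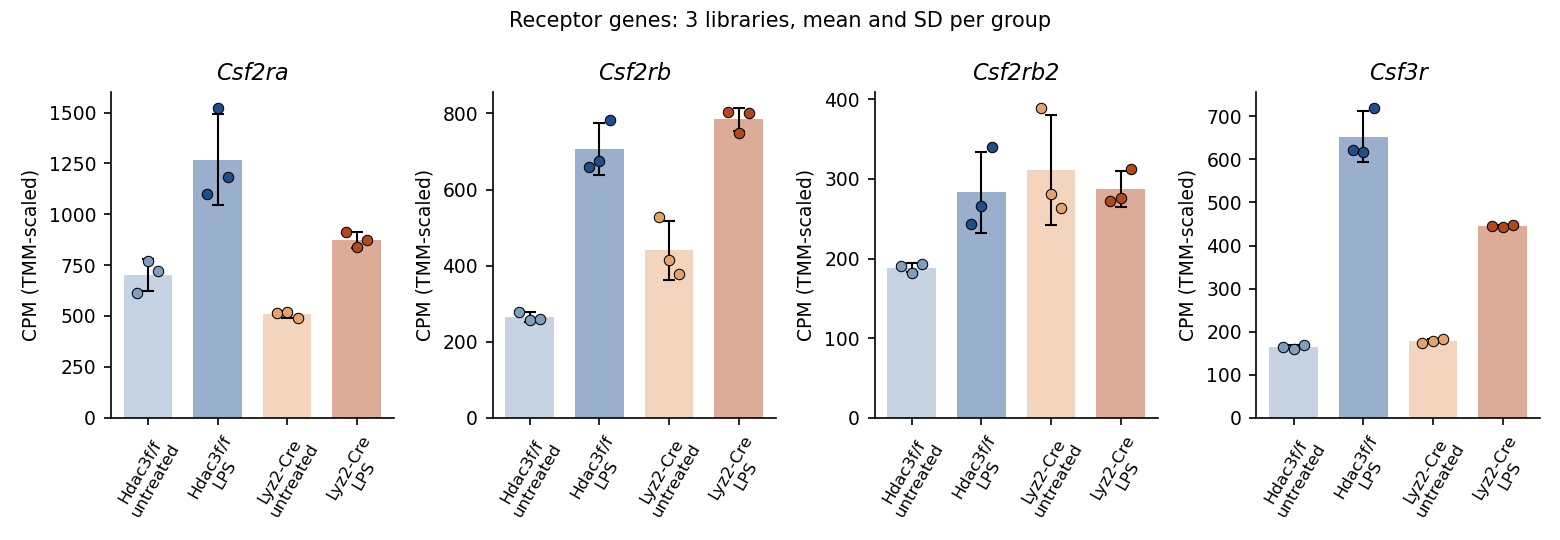
CPM of Csf2ra, Csf2rb, Csf2rb2 and Csf3r by group, on linear axes that differ between genes, with points for the 12 libraries, bars for the group mean and whiskers for the SD (n = 3). The untreated Lyz2-Cre-Hdac3f/f libraries lie above the untreated Hdac3f/f ones for Csf2rb and Csf2rb2 and under them for Csf2ra, and Csf3r with LPS lies at 443 to 449 CPM in Lyz2-Cre-Hdac3f/f cells against 616 to 721 CPM in Hdac3f/f cells.

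The split of counts between the 2 beta chain genes differed between untreated and LPS-treated libraries. Csf2rb2 made up 41.6% ± 1.10 (SD, n = 3) of the counts of both beta chain genes in untreated Hdac3f/f and 41.3% ± 1.13 in untreated Lyz2-Cre-Hdac3f/f cells. With LPS the share was 28.5% ± 1.66 and 26.8% ± 1.37. Every LPS-treated library lay under every untreated one, and the genotypes overlapped under either condition. The differences of -13.08 percentage points in Hdac3f/f cells and -14.5 percentage points in Lyz2-Cre-Hdac3f/f cells each gave an exact two-sided permutation p of 0.1, the smallest that 3 against 3 libraries allow, and 0.2 after adjustment over 8 comparisons. The genotypes differed by -0.30 percentage points without LPS (exact p = 0.7) and by -1.75 with LPS (exact p = 0.2). A share within a library does not depend on how libraries are scaled. It is a share of counts and not of molecules. Per length Csf2rb2 had the higher mean in untreated cells, at 39.8 against 36.4 RPKM (CPM per kilobase) in Hdac3f/f and 65.7 against 60.5 RPKM in Lyz2-Cre-Hdac3f/f cells. A transfer of reads between the 2 near copies was not tested here either.

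**Figure D5:**
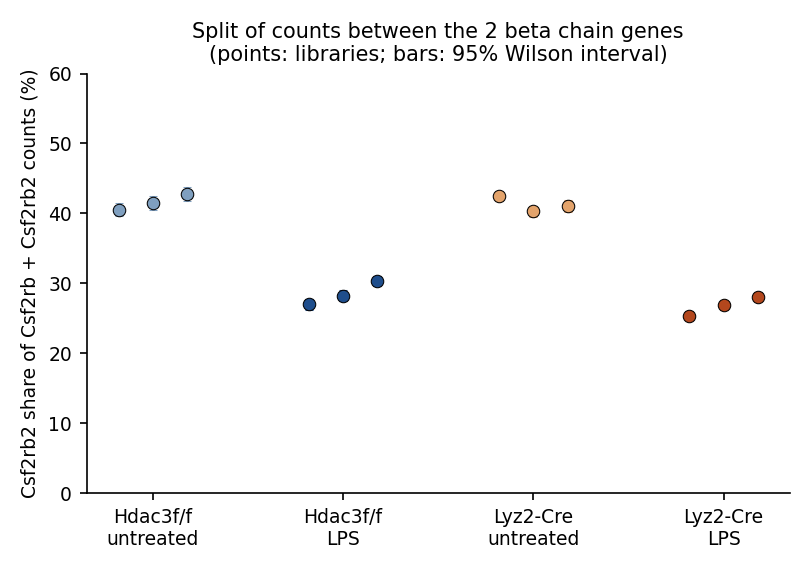
Csf2rb2 as a percentage of the summed counts of Csf2rb and Csf2rb2 in each library, by group, with Wilson 95% intervals for counting error, which are mostly hidden by the points. Untreated libraries lie between 40.3% and 42.8% and LPS-treated ones between 25.3% and 30.3%.

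Per length, the alpha chain exceeded the shared beta chain in every library. The ratio of Csf2ra to Csf2rb in RPKM (CPM per kilobase of deposited length) was 10.5 ± 1.64 (SD, n = 3) in Hdac3f/f cells without LPS and 7.13 ± 1.56 with it. It was 4.62 ± 0.67 and 4.38 ± 0.095 in Lyz2-Cre-Hdac3f/f cells. The genotypes did not overlap untreated (8.63 to 11.8 against 3.85 to 5.08) or with LPS (5.93 to 8.89 against 4.28 to 4.46), with an exact permutation p of 0.1 in each case, the smallest possible, and 0.2 after adjustment. Against the sum of both beta chains the ratio was 4.22 to 5.64 without and 3.56 to 5.54 with LPS in Hdac3f/f cells, which overlap. It was 1.80 to 2.46 without and 2.67 to 2.93 with LPS in Lyz2-Cre-Hdac3f/f cells, higher with LPS where the ratio to Csf2rb alone had a lower mean. The genotypes did not overlap by this ratio either. Deposited lengths are gene model lengths, so this ratio is no count of molecules.

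Csf3r, the receptor for G-CSF, was the only member whose interaction was called. Interactions of -1.15 ± 0.45 for Csf1, -0.70 ± 0.22 for Csf2rb2 and -0.58 ± 0.17 for Csf2rb did not pass. Their SEs were larger than that of Csf3r, so a difference in their LPS responses is left undecided. Csf3r stood at 164, 159 and 168 CPM in untreated Hdac3f/f and 173, 179 and 183 CPM in untreated Lyz2-Cre-Hdac3f/f libraries. With LPS it stood at 622, 616 and 721 CPM in Hdac3f/f and 445, 443 and 449 CPM in Lyz2-Cre-Hdac3f/f cells. The untreated genotypes lay close together without overlap, and the LPS-treated ones were clearly apart. Csf3r rose with LPS by 1.99 ± 0.09 (adjusted p = 1.25e-09, edgeR) in Hdac3f/f and by 1.32 ± 0.09 (adjusted p = 6.31e-08, edgeR) in Lyz2-Cre-Hdac3f/f cells. The genotype difference was 0.12 ± 0.09 without LPS (adjusted p = 0.387, edgeR) and -0.55 ± 0.09 with LPS (adjusted p = 0.000816, edgeR), the latter called in all 21 other settings, from -0.60 to -0.28. The interaction was -0.67 ± 0.12 (adjusted p = 0.00636, edgeR), and only with library totals alone did it miss the threshold (-0.42, adjusted p = 0.0501).

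Neutrophils, which carry Csf3r, were represented by 10 markers of which 8 could be tested. With LPS, where Csf3r was lower in Lyz2-Cre-Hdac3f/f cells, the median log2 genotype difference of the 8 was 0.29. Their summed level was 131 to 301 CPM in LPS-treated Hdac3f/f and 103 to 371 CPM in LPS-treated Lyz2-Cre-Hdac3f/f libraries, which overlap. Ly6g and Retnlg were at 0 in LPS-treated Hdac3f/f cells, and no marker was at 0 in the other groups. LPS raised Camp and lowered Mpo and Elane in Hdac3f/f cells, and raised Camp and S100a8 in Lyz2-Cre-Hdac3f/f cells. Without LPS 2 of 8 were lower in Lyz2-Cre-Hdac3f/f cells, S100a8 and Camp, against 6.66% of all genes. The sums without LPS were 218 to 382 CPM in Hdac3f/f and 57.1 to 161 CPM in Lyz2-Cre-Hdac3f/f libraries. Their part in the Csf3r values was not tested.

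Within each group the order of levels per length was led by Csf2ra, at 379 ± 43.5 and 686 ± 122 RPKM in untreated and LPS-treated Hdac3f/f cells and 275 ± 9.14 and 472 ± 20.2 RPKM in Lyz2-Cre-Hdac3f/f cells (SD, n = 3). In untreated Hdac3f/f cells Csf3r (45.4 RPKM), Csf2rb2 (39.8), Csf2rb (36.4), Csf1 (3.09) and Csf2 (0.139) followed, and no neighbours overlapped. Such orders depend on the deposited lengths, which are 7277 bases for Csf2rb and 4740 bases for Csf2rb2. In mean CPM Csf2rb (265) stood above Csf2rb2 (189) and Csf3r (164) in these cells. In untreated Lyz2-Cre-Hdac3f/f cells both beta chains, Csf2rb2 at 65.7 and Csf2rb at 60.5 RPKM, stood above Csf3r at 49.4 RPKM, and the beta chains overlapped each other. With LPS Csf3 joined the receptors. In Hdac3f/f cells it stood at 107 RPKM, overlapping Csf2rb (97.0) and under Csf3r (181), and in Lyz2-Cre-Hdac3f/f cells at 68.9 RPKM, overlapping Csf2rb2 (60.6) and under Csf2rb (108) and Csf3r (124). Csf1 and Csf2 were last with LPS, at 14.3 and 5.99 RPKM in Hdac3f/f cells without overlap and at 3.11 and 4.28 RPKM with overlap in Lyz2-Cre-Hdac3f/f cells.

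Of 10 further cytokines and receptors of the family, 6 could be tested. Il3 was at 0 counts in all groups, so the ligand served by Csf2rb2 was not detected. Csf1r, the M-CSF receptor, was higher in Lyz2-Cre-Hdac3f/f cells with LPS by 0.36 ± 0.10 (adjusted p = 0.0145, edgeR), opposite in direction to its ligand, at 2309.8 against 1796 CPM. Il3ra, the interleukin 3 receptor alpha chain, was lower there by -0.59 ± 0.19 (adjusted p = 0.0293, edgeR), and Kit, the stem cell factor receptor that mast cells carry, was higher by 1.25 ± 0.34 (adjusted p = 0.0148, edgeR). Kitl, the Kit ligand, fell with LPS by 1.81 in Hdac3f/f and by 1.29 in Lyz2-Cre-Hdac3f/f cells.

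Most signalling genes just under these receptors rose with LPS in both genotypes. Of 22 receptor-proximal genes (Janus kinases, STATs, Src family kinases and adaptors), all tested, 18 rose and 1 fell in Hdac3f/f cells and 16 rose and 2 fell in Lyz2-Cre-Hdac3f/f cells, with median log2 fold changes of 1.39 and 0.80. Of all genes, 28.0% and 25.2% rose. Stat3, the main STAT of the G-CSF receptor, rose by 2.67 and 2.02. Jak2, the kinase bound to the beta chain, had means of 33.7 and 299 CPM in untreated and LPS-treated Hdac3f/f cells. In Lyz2-Cre-Hdac3f/f cells its means were 54.9 and 442 CPM, a rise of 3.01 on the log2 scale. Between the genotypes with LPS 10 were lower in Lyz2-Cre-Hdac3f/f cells, against 16.9% of all genes, and 1 was higher, with lower values among them for Tyk2 (-1.02 ± 0.12, adjusted p = 0.000142, edgeR) and Stat5a (-0.98 ± 0.11, adjusted p = 0.000164, edgeR), a STAT that GM-CSF activates. The interaction was called lower for 9 of 22, against 5.54% of all genes, including Stat5a (-0.91), Fgr (-0.67) and Tyk2 (-0.84).

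Genes that dampen these receptors gave mixed counts with LPS, while most genes known as STAT5 targets rose. Of 12 feedback genes 7 rose and 2 fell with LPS in Hdac3f/f cells, and 6 rose and 2 fell in Lyz2-Cre-Hdac3f/f cells, against 28.0% and 25.2% of all genes that rose. Socs3, which binds the G-CSF receptor and blocks its signal, had means of 6.27 and 2896 CPM in untreated and LPS-treated Hdac3f/f cells and 7.65 and 1788 CPM in Lyz2-Cre-Hdac3f/f cells. Cish, a SOCS family gene switched on by STAT5, rose by 4.91 and 3.42, with an interaction of -1.49 ± 0.40 (adjusted p = 0.0404, edgeR). With LPS 4 feedback genes were lower and 1 higher in Lyz2-Cre-Hdac3f/f cells, against 16.9% and 15.7% of all genes. Ptpn6, a phosphatase acting on these receptors, was lower by -0.49. Of 12 STAT5 targets 11 rose with LPS in Hdac3f/f and 9 in Lyz2-Cre-Hdac3f/f cells, and 1 fell in each. Of all genes 28.0% and 25.2% rose. With LPS 6 were lower in Lyz2-Cre-Hdac3f/f cells, against 16.9% of all genes, such as Bcl2l1, a survival gene (-1.07), and Ccnd2, a cyclin (-1.03), while Pim2, a survival kinase, was higher (1.38). Ccnd1, another cyclin, was lower in Lyz2-Cre-Hdac3f/f cells without (-2.94) and with LPS (-2.26). Many of these genes also answer to other signals, so the counts are no readout of the receptors alone.

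Factors of messenger RNA decay and stability, several of which bind AU-rich elements such as those printed above, gave LPS response counts not far from those of all genes. Of 12 such genes 5 rose and 4 fell with LPS in Hdac3f/f cells, and 5 rose and 3 fell in Lyz2-Cre-Hdac3f/f cells. Of all genes 28.0% rose and 32.1% fell in the former and 25.2% rose and 27.7% fell in the latter. Zc3h12a, an RNase that degrades cytokine messages, rose by 4.48 and 4.10. Zfp36, the decay factor tristetraprolin, had means of 86.8 and 870.02 CPM in untreated and LPS-treated Hdac3f/f cells and 59.1 and 328 CPM in Lyz2-Cre-Hdac3f/f cells. It was lower in the latter genotype without LPS (-0.56, adjusted p = 0.0282, edgeR) and with LPS (-1.41, adjusted p = 9.04e-05, edgeR), and its interaction was -0.85 ± 0.20 (adjusted p = 0.024, edgeR). Its relative Zfp36l1 was higher with LPS in Lyz2-Cre-Hdac3f/f cells (1.21). With LPS 4 of the 12 were higher and 2 lower in these cells, against 15.7% and 16.9% of all genes. Beside this the Csf3 level was lower and the Csf2 difference was not called.

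Myeloid transcription factors also moved in both directions with LPS. Of 12, 7 rose and 4 fell with LPS in Hdac3f/f cells and 7 rose and 3 fell in Lyz2-Cre-Hdac3f/f cells. Of all genes 28.0% and 25.2% rose, and 32.1% and 27.7% fell. Cebpa, a regulator of Csf3r in granulocyte precursors, had means of 638 and 91.0 CPM in untreated and LPS-treated Hdac3f/f cells and 289 and 106 CPM in Lyz2-Cre-Hdac3f/f cells. It was lower without LPS in Lyz2-Cre-Hdac3f/f cells (-1.14, adjusted p = 0.00748, edgeR), where Csf3r was not called different. With LPS 5 of 12 were lower in these cells, against 16.9% of all genes, among them Spi1, which encodes PU.1 (-0.67), Irf8 (-0.68), Cebpd (-0.90) and Gfi1 (-1.60).

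The promoters were read from RefSeq (GRCm38.p6), whose table matched 5 of the 7 genes by symbol and not Csf3 or Csf2rb. The 250 bases before the start were searched on both strands for 5 motifs: an NF-kB type (GGGA, any 4 bases, then CC), an AP-1 type (TGA, any base, TCA), a C/EBP type (TT, any 2 bases, GCAA), an ETS type as bound by PU.1 (GAGGAA) and the TATA type (TATAAA), counting overlapping matches. Only Csf1 and Csf3r held the NF-kB type, which 17.6% of 32851 promoters hold. Both sequences are shown 5′ to 3′ on the gene's strand because they hold this match, with all motif matches in capitals. Csf2ra and Csf2, which also rose with LPS, held none of this type in the windows searched. For Csf2 the RefSeq start lies 232 bases upstream of the deposited one. Most of the 250 bases before its deposited start were therefore not searched, and a match there cannot be told. Csf2ra was lower with LPS in Lyz2-Cre-Hdac3f/f cells as Csf1 and Csf3r were.
Csf1: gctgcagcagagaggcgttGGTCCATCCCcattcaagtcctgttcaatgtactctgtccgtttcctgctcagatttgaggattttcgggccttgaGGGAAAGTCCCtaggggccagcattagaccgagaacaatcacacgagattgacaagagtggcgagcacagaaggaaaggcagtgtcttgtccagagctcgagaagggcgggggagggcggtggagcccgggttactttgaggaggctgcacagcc
Csf3r: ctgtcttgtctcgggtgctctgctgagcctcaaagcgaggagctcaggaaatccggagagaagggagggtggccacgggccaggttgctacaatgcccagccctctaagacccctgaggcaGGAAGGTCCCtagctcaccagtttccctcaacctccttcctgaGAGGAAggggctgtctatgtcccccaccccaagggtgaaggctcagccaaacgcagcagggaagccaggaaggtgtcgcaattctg
The Csf1 window is chr3:107760470-107760719 on the minus strand, with matches starting at -231, -155 and -154 from the start site, the last 2 overlapping. The Csf3r window is chr4:126024409-126024658 on the plus strand, with the NF-kB type at -129 and the ETS type, held by 23.3% of promoters, at -86. Its RefSeq start lies 109 bases from the deposited one. Csf2 held a C/EBP type match at -145, Csf2rb2 an ETS type match at -167, and Csf2ra 2 ETS type matches at -14 and -8. The matches describe these windows and show no binding.

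Genes with the most similar pattern were ranked by the root mean square difference of log2 CPM, centred per gene, over the 12 libraries. For Csf1 they were Rcn1 (0.353), Pmepa1 (0.36) and Hbegf (0.411). Csf2 was nearest to Adora2b (0.412), Pdpn (0.419) and Zc3h12a (0.423), and Csf3 to Il1b (0.755), Ptgs2 (0.773) and Socs3 (0.876). Among the receptors, Csf2ra was nearest to Arhgdia (0.0642), Pak4 (0.0892) and Gemin7 (0.0919), and Csf3r to Sec24b (0.076), Pik3cd (0.106) and Cycs (0.117). Csf2rb was nearest to Cysltr2 (0.162), Chd7 (0.17) and Gab1 (0.176), and Csf2rb2 to Slc9a3r1 (0.167), Ppif (0.173) and Mocs2 (0.186). No member was among the 3 nearest genes of another member, but Csf2 could not be named, as it stayed under 5 CPM in every group mean. Csf3, whose untreated libraries were at or near 0 counts, had the largest distances.

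The authors' deposited table gives its own log2 ratios, of Hdac3f/f over Lyz2-Cre-Hdac3f/f and so opposite in sign. In the authors' deposited table Csf1 stands at 1.08 without LPS (adjusted p = 0.0127) and at 2.21 with LPS (adjusted p = 3.54e-27). The authors' deposited table thus places Csf1 past 0.05 without LPS, where the edgeR fit gave 0.053. For Csf2ra it lists 0.50 and 0.55, for Csf2rb -0.70 and -0.14, and for Csf3r -0.09 and 0.56, in the authors' deposited table without and with LPS.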

How the data were processed

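Poly(A) selection and strandedness are not given in the sources used here. The submitters' processing notes name TopHat2 and mm10. The authors deposited whole-number counts per gene and library, and the counting tool and annotation release are not given in the sources used here. The deposited table also holds FPKM values made by the authors, which were not used, gene lengths, and the authors' log2 ratios with adjusted p-values. The 7 genes and all gene lists were chosen with earlier results of these data known. Their counts beside the shares of all genes are therefore descriptions and no independent test.

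Counts of all 12 libraries were fitted with edgeR 4.0.16 (R 4.3.3, limma 3.58.1): filterByExpr by group, TMM, 1 coefficient per group, quasi-likelihood F test, Benjamini-Hochberg adjusted p under 0.05 over 14286 genes. CPM use TMM-scaled library sizes, and RPKM divide these by the deposited length. Alternatives were RLE size factors, library totals, no filter or 1 CPM in 3 libraries, only the groups compared, a replicate block, both beta chains summed, DESeq2 1.42.0, leaving out each library and, added after seeing the data, leaving out both untreated replicate 1 libraries. From each list up to 4 called genes with the lowest p per comparison were named, together with the members, Hdac3, and the 3 most similar genes of each member at 5 CPM or more in some group (prior count 2). Sums of markers, Il3, Lyz2 and Col1a1 were given beside these. Replicates differed by more than sampling noise, with 7.97 to 46.2 chi-square units per gene. Shares were compared by exact two-sided permutation tests in Python 3.11.15 with scipy 1.17.1. Some genes that the rule would name are not reported here.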

Additional observations from a re-analysis of the deposited data

Results flagged for a closer look

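Csf3r met the criterion that an effect of the same treatment differs between 2 groups. Its log2 LPS response was 1.99 in Hdac3f/f and 1.32 in Lyz2-Cre-Hdac3f/f cells, a difference of -0.67 ± 0.12 by edgeR's interaction term (adjusted p = 0.00636). With library totals alone the difference was -0.42 (adjusted p = 0.0501).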

How the results depend on the processing

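The limits are 3 libraries per group, 2 near-identical beta chain genes, and 7 Csf2 counts per untreated group. In 4 of the 5 comparisons the number of members called stayed within 1.5 times. For the interaction it was 1, and became 0 with library totals alone, 3 with no filter on low counts, 3 with DESeq2, 2 with both untreated replicate 1 libraries left out, and 1 to 3 when single libraries were left out. DESeq2 called 1752 genes for the interaction against 1160. Leaving out single libraries gave 779 to 2530 genes for the genotype difference without LPS (1685 with all), 2798 to 6004 with LPS (4656) and 530 to 1996 for the interaction (1160). Of the members called, Csf2rb2 with LPS in Hdac3f/f cells turned direction, to -0.054 with library totals alone. The other turns concern fold changes that were not called. Csf2rb2 with LPS in Lyz2-Cre-Hdac3f/f cells gave -0.22 to 0.084 when single libraries were left out, above 0 without untreated replicate 1, and 0.11 without both untreated replicate 1 libraries. Csf2 between untreated genotypes gave 0.013 with library totals alone, 0.013 with the replicate block, and -0.61 to 0.31 leaving out single libraries. Csf2rb2 between LPS-treated genotypes gave -0.031 with RLE size factors, -0.029 with DESeq2, and -0.083 to 0.18 leaving out single libraries. Csf2 there gave -0.87 to 0.072, above 0 without Hdac3f/f replicate 3. In the interaction Csf2ra gave 0.18 with library totals alone, -0.14 to 0.10 leaving out single libraries and 0.048 without both untreated replicate 1 libraries. Csf2 gave -0.84 to 0.13 and 0.30. The cause was not tested. Same-numbered libraries showed no clear common deviation (correlations from -0.404 to 0.217). Between untreated and LPS-treated libraries these correlations were 0.003 to 0.197 in Hdac3f/f and 0.011 to 0.134 in Lyz2-Cre-Hdac3f/f cells. Differently numbered Hdac3f/f libraries reached 0.364. With 3 libraries per group this cannot exclude a pairing, and the main fit did not use the numbers. The replicate block gave 8717, 7687, 1886, 4989 and 1196 called genes in the 5 comparisons and changed no call of a member.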
